A study of Rattus norvegicus with 13 samples.

Results

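The WASP, WAVE and WIP genes encode regulators of the actin cytoskeleton, and 9 of them were followed in the thyroid of male rats whose mothers had received potassium iodide (KI) or saline during pregnancy. The genes were Was, Wasl, Wasf1, Wasf2, Wasf3, Wipf1, Wipf2, Wipf3 and LOC103692269, a predicted locus that the array design describes as a neural Wiskott-Aldrich syndrome protein-like gene. Every probe carrying one of these names was kept, which gave 14 of the array's 45598 probes and 8 of its 36174 different gene names. No probe was named Wasf3. Wipf2, Wasl and LOC103692269 were chosen because of their values in the comparison of the groups, so their differences are given as a description, without a test. The other members were added as relatives of these genes.

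RNA from 13 thyroids was hybridised to one-colour Agilent arrays, 1 animal per array. The KI-treated group held 6 male Wistar rats whose mothers were given KI by gavage for several days of gestation, and the control group held 7 male Wistar rats whose mothers were given saline in the same way. All thyroids were taken some weeks after weaning, so that the animals had been exposed only through the mother. The litters are not named in the sources used here, and p-values therefore measure the spread between these animals, some of which may share a mother. A level is the log2 processed signal of a probe minus the 75th percentile of its array, and a difference is the mean level of the KI-treated group minus that of the control group. Levels of different probes cannot be ranked against each other. Since whole thyroid was measured, fewer cells of a type and less RNA per cell cannot be told apart.

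Branched actin networks are started by the Arp2/3 complex, which needs an activator. WASP (Was, of blood cells) and N-WASP (Wasl, broadly expressed) are activated by the GTPase Cdc42 and by membrane phosphoinositides, while the WAVE proteins (Wasf1 to Wasf3) work in a larger complex downstream of Rac. The WIP proteins (Wipf1 to Wipf3) bind WASP and N-WASP, hold them in their inactive state and keep WASP from being degraded. In epithelia such as the thyroid follicle, actin at the apical side carries the microvilli and takes part in the uptake of thyroglobulin.

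The sequences of 2 probes are shown because the difference between the groups was largest at these probes among the members tested. Each is 60 bases long. The capitals mark the longest run that the probe shares, on either strand, with any of the 45597 other probes of the array. Only probe sequences were compared, not whole transcripts, so the run cannot tell whether a probe reads another gene.
LOC103692269, probe A_44_P1105373: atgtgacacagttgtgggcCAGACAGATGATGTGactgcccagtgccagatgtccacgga
Wipf2, probe A_64_P082843: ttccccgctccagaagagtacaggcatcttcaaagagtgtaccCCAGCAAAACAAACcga
The first shared at most 15 bases, with a probe of LOC103691824, and the second at most 14, with a probe of St14. The LOC103692269 probe lay at chr4:183416820-183420332 on the forward strand of rn4, the rat build used in the array files. This interval covers 3513 bases, more than the length of the probe. The Wipf2 probe lay at chr10:87675732-87675791 on the forward strand of the same build. Exons and untranslated regions were not assigned, since no annotation of rn4 was used here.

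On each array 34840 to 41050 of 58717 gene spots were well above background and 0 were saturated. Control 4 and control 6 had the lowest 75th percentiles, 8.18 and 7.92 on the log2 scale against 8.48 to 9.10 in the others. Across the array, one or the other of these animals held the highest level at 43.3% of the probes with all values. All 8 markers of thyroid follicle cells, Tg and Pax8 among them, were well above background on all 13 arrays. Skeletal muscle genes varied between animals, and the summed level of 6 of 6 skeletal muscle markers ranged from 1.52 to 5.72 in KI-treated animals and from 3.60 to 6.84 in controls. After subtracting group means, this sum correlated with the members at r of -0.31 to 0.29. The summed level of 4 endothelial markers was 6.35 to 6.78 with KI and 6.23 to 7.23 in controls, highest in control 4. It correlated at 0.92 with Wasl, 0.89 with Wasf2 and 0.86 with LOC103692269. High values were not particular to endothelium. Wasf2 correlated at 0.85 with the sum of neuron markers, 0.81 with parathyroid and 0.76 with follicle cell markers. Wasl correlated at 0.77 with parathyroid, 0.72 with red cell and 0.70 with neuron markers, but at 0.36 with leukocyte and -0.08 with adipocyte markers. LOC103692269 correlated at 0.77 with follicle cell markers. The sum of 3 C cell markers, 7.45 to 8.27 with KI and 7.05 to 8.21 in controls, correlated at -0.89 with Wasl. Levels were summed before taking the log, so that the brightest gene of a list weighs most, such as Tg for follicle cells and Pth for parathyroid. The correlations with these sums were not computed without controls 4 and 6. The part of these cell types and of the low percentiles in the results was not tested.

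Of the 14 probes, 10 were well above background on at least 6 arrays and were compared, against 25717 of all probes. With limma and Benjamini-Hochberg adjustment over those probes, 0 of the 10 passed an adjusted p of 0.05, as did 0% of all probes tested. At an unadjusted p under 0.05 there were 2 of 10, the LOC103692269 probe and 1 Wipf2 probe, against 12.7% of all probes in either direction and 7.01% in the direction of these 2, lower with KI. Both belong to the genes chosen on this comparison, so their count follows from that choice and nothing is read from it. The difference was below 0 at 7 of the 10 probes, with a median of -0.18, while 60.7% of all probes tested lay below 0, with a median of -0.08. Control 4 was highest at 6 of the 10 probes and at 28.4% of all probes.

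**Figure D1:**
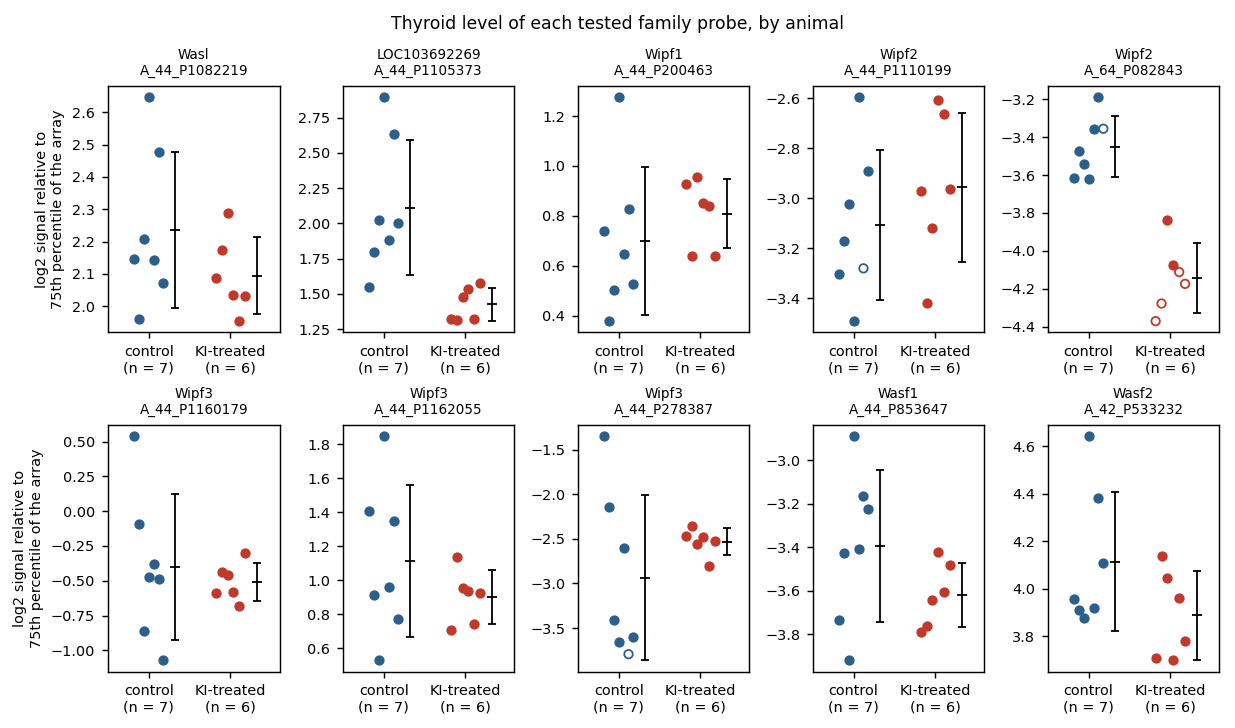
Level of each of the 10 tested probes in every animal (log2 signal above its array's 75th percentile), with a separate vertical scale per probe. Filled points are animals in which the probe was well above background, open points those in which it was not, and bars are mean ± SD; the groups do not overlap at 1 probe, Wipf2 A_64_P082843.

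LOC103692269 had a lower mean level in the KI-treated group, one of the values for which it was chosen. Its levels in KI-treated animals 1 to 6 were 1.32, 1.31, 1.48, 1.54, 1.32 and 1.57. In controls 1 to 7 they were 1.55, 1.80, 2.02, 2.90, 1.89, 2.63 and 2.00. The 6 treated animals lay close together, 6 of the 7 controls lay above all of them, and the groups met only at control 1, whose level was 0.02 below the highest treated one. The means were 1.42 ± 0.12 (SD, n = 6) and 2.11 ± 0.48 (SD, n = 7), a difference of -0.69 (SE 0.19), or 1.61-fold lower. The probe was well above background on all 13 arrays.

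The LOC103692269 difference was smaller without the controls with the highest levels. Without control 4 it was -0.56, and without controls 4 and 6 together, a choice made after seeing the data, it was -0.43. Whether the groups overlapped depended on the scale. They overlapped in the main comparison, with normexp background correction and the 75th percentile, and with outlier spots kept. They did not overlap after quantile normalisation, where treated animals reached 10.28 and controls began at 10.29 on the log2 scale. Nor did they with normexp and quantile normalisation, in the deposited log2 values, or with the percentile taken over spots. The share of all probes without overlap was not computed on these scales. Within each of the 5 slides that held both groups the difference was below 0, ranging from -1.58 to -0.23. Each of these slides held only 1 or 2 arrays of a group. The gene was chosen on these same values, so nothing is read from the sign. The nearest other tested probes on the rn4 map, 2 of Rassf8 at distances of 70005 and 75428 bases, differed by 0.08 (SE 0.20) and -0.15 (SE 0.15).

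Wasl, the gene of N-WASP, differed little between the groups. The KI-treated animals 1 to 6 had levels of 2.09, 2.17, 2.29, 2.03, 1.95 and 2.03. The controls 1 to 7 had levels of 2.14, 1.96, 2.21, 2.65, 2.14, 2.48 and 2.07. The ranges overlapped, and the controls above every treated animal were controls 4 and 6. The means of 2.09 ± 0.12 (SD, n = 6) and 2.24 ± 0.24 (SD, n = 7) differed by -0.14 (SE 0.12), and by -0.01 without controls 4 and 6. The single Wasl probe, A_44_P1082219, starts at base 4133 of its transcript, had no rn4 position in the files, and was well above background on every array.

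Was, whose protein is made in blood cells, was not well above background on any of the 13 arrays. Its probe (A_44_P497033, chrX:26439045-26439104, forward strand) had mean spot signals of 34 to 39 in KI-treated animals and 29 to 38 in controls, over local backgrounds of 21 to 31, so that no fold is given. Other blood cell genes gave signal in the same RNA. Of 12 leukocyte markers 7 were tested and 6, with Ptprc and Coro1a among them, were well above background on all arrays, while Cd3e, Cd8a and Vav1 were among those that did not pass the filter and Cd79a had no probe. The summed leukocyte level was 3.54 to 5.09 in the KI-treated group and 4.03 to 4.54 in the control group.

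Wipf2, a WIP family member, was read by a pair of probes 1819 bases apart on chromosome 10, and their values differed. At A_64_P082843 the KI-treated animals 1 to 6 had levels of -4.37, -4.28, -3.84, -4.08, -4.11 and -4.17. The controls 1 to 7 had -3.62, -3.47, -3.54, -3.62, -3.36, -3.19 and -3.36. Every control lay above every treated animal, with a gap of 0.22. Groups that did not overlap, with KI lower, were found at 0.324% of all probes with complete values. Wipf2 was chosen on these same values, so nothing is read from this share. The probe also met the filter of 6 arrays through the controls, with 6 of them well above background against 2 treated animals. The means were -4.14 ± 0.18 (SD, n = 6) and -3.45 ± 0.16 (SD, n = 7), a difference of the measured means of -0.69 (SE 0.11), for which no fold is given because the probe was often not above background in the treated animals.

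That probe was dim. It was well above background in 2 of 6 KI-treated animals and 6 of 7 controls, and its mean spot signal was 52.3 to 65.3 in the first group and 50.4 to 82.2 in the second, over local backgrounds of 22 to 37. For 4 of the 6 treated animals the level is therefore only a bound. The difference shrank to -0.40 with normexp background correction and the 75th percentile, to -0.21 with normexp and quantile normalisation, and to -0.21 in the deposited log2 values, where the groups overlapped. They also overlapped where the percentile was taken over spots instead of probes, with a difference of -0.61. Without controls 4 and 6 it was -0.67, and within the 5 slides it ran from -0.80 to -0.50. Since the groups did not overlap in the main comparison, a value below 0 on every slide follows from that.

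The other Wipf2 probe, A_44_P1110199 at chr10:87677551-87677610, did not share the difference. Its levels in KI-treated animals 1 to 6 were -2.97, -3.42, -3.12, -2.61, -2.66 and -2.96. In controls 1 to 7 they were -3.30, -3.17, -3.02, -3.49, -2.59, -3.28 and -2.89. The groups overlapped almost fully, and the means of -2.96 ± 0.30 (SD, n = 6) and -3.11 ± 0.30 (SD, n = 7) differed by 0.15 (SE 0.17). The difference was above 0 on all 5 slides but was -0.08 with normexp and the 75th percentile. This probe was well above background in 6 of 6 treated animals and 6 of 7 controls. After each group's mean was subtracted, the Wipf2 probes correlated over the 13 arrays with a Pearson r of 0.29 and a Spearman rho of 0.39. Without the 2 arrays farthest from the median of A_44_P1110199, r was 0.14. The probes start at bases 1221 and 2803 of different transcript records.

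**Figure D2:**
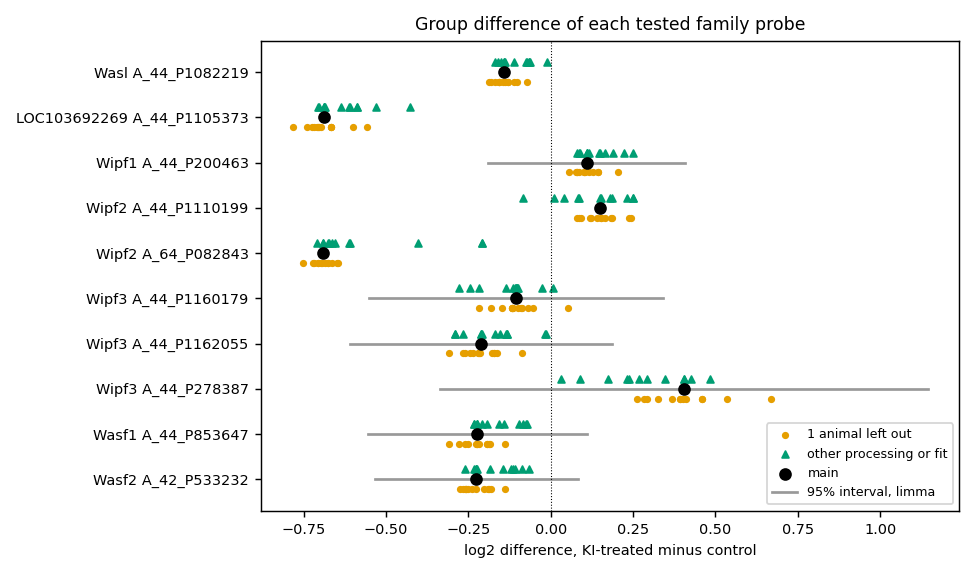
Difference of each tested probe (log2, KI-treated minus control) in the main comparison (black; grey line: 95% interval from limma, for genes not chosen on this comparison), with 1 animal left out at a time (orange) and under other processing or models (green). The LOC103692269 and Wipf2 A_64_P082843 values all lie below 0, and the latter reach -0.21.

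Wipf1, the gene of WIP itself, did not pass the test. Its probe (A_44_P200463, chr3:55945275-55945334, reverse strand) gave levels of 0.93, 0.64, 0.96, 0.85, 0.84 and 0.64 in KI-treated animals 1 to 6. The controls 1 to 7 gave 0.74, 0.38, 0.50, 1.28, 0.65, 0.83 and 0.53. The treated levels lay inside the range of the controls. The difference was 0.11 (SE 0.14, 95% interval -0.19 to 0.41, limma adjusted p = 0.683), and 0.25 without controls 4 and 6.

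Wipf3, the third WIP family gene, had 5 probes, of which A_44_P1104743 and A_64_P163416 were well above background on 1 array each and were not tested. The 3 tested probes lie close together at the far end of the transcript record, starting at bases 3584, 3758 and 4279. At A_44_P1162055 the levels ran from 0.70 to 1.14 in KI-treated animals and from 0.53 to 1.85 in controls, a difference of -0.21 (SE 0.19, limma adjusted p = 0.564). This value was -0.09 without control 4, -0.02 without controls 4 and 6, and -0.01 with array weights. At A_44_P1160179 they ran from -0.68 to -0.30 and from -1.07 to 0.54, a difference of -0.10 (SE 0.21, limma adjusted p = 0.792). It was 0.05 without control 1. At A_44_P278387 they ran from -2.80 to -2.36 and from -3.79 to -1.35, a difference of 0.40 (SE 0.35, limma adjusted p = 0.555). That difference was 0.67 without control 1, 0.09 without controls 4 and 6, and 0.03 with normexp and the 75th percentile.

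At these Wipf3 probes the SD of the controls was 0.45, 0.52 and 0.93, against 0.16, 0.14 and 0.15 in the treated animals. On the same scale a wider spread of the controls was also seen at LOC103692269, Wasl, Wipf1, Wasf1 and Wasf2. It did not hold on every scale. After quantile normalisation the Wasf2 SD was 0.15 in controls and 0.18 in treated animals. In the deposited log2 values the Wasl SD was 0.13 in controls and 0.14 in treated animals. The spread was not tested, and it was not computed over all probes for comparison. The 2 probes whose starts are nearest to each other followed the same animals, with a Pearson r of 0.85 (rho 0.73) over the 13 arrays after subtracting group means. It was 0.65 without the 2 arrays farthest from the median of A_44_P1160179. Control 1 was highest at both. The brightest of the 3, A_44_P1162055, was highest in control 4 and correlated with the others at 0.46 and 0.04.

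Wasf2, which encodes the broadly expressed WAVE2, was read well above background on all arrays by A_42_P533232 (chr5:151927248-151927307, reverse strand). Its levels in KI-treated animals 1 to 6 were 3.71, 4.14, 4.04, 3.70, 3.96 and 3.78. In controls 1 to 7 they were 3.96, 3.91, 3.88, 4.64, 3.92, 4.38 and 4.11. Controls 4 and 6 were once more the only animals above every treated one. The difference was -0.23 (SE 0.14, 95% interval -0.53 to 0.08, limma adjusted p = 0.468), and -0.07 without them. A second Wasf2 probe, A_64_P125312, which starts at base 899 of another transcript record, was not well above background on any array.

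Wasf1, the gene of WAVE1, which is best known from the nervous system, was printed as 1 probe in 10 spots per array (A_44_P853647). Its levels in KI-treated animals 1 to 6 were -3.79, -3.76, -3.64, -3.42, -3.61 and -3.48. In controls 1 to 7 they were -3.73, -3.43, -3.92, -2.89, -3.41, -3.16 and -3.22. All 6 treated animals lay below the control median, while control 3 was the lowest of all. The difference was -0.22 (SE 0.16, 95% interval -0.55 to 0.11, limma adjusted p = 0.495), and -0.07 without controls 4 and 6. The repeated spots show the measuring error of a dim probe: within an array their SD was 0.10 to 0.31, with a median of 0.21, after 6 spots flagged as outliers on 5 arrays were left out. The SD between animals was 0.15 in the treated and 0.35 in the control group. An animal's level is the mean of up to 10 spots, so these values cannot be set directly against the SD of single spots. For Wipf3 A_44_P1162055, printed in 2 spots, the median SD between spots was 0.06.

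**Figure D3:**
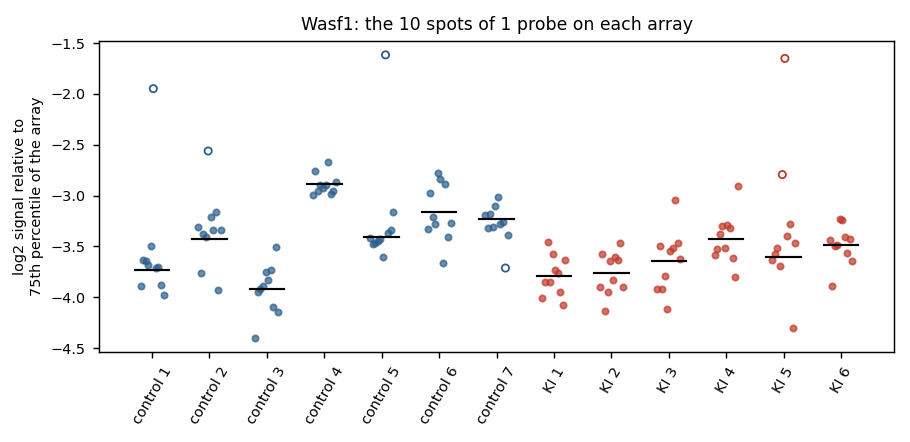
The 10 spots of the Wasf1 probe on each of the 13 arrays (log2 signal above its array's 75th percentile); open points are spots flagged as outliers and left out, and black lines are the mean of the rest. Control 4 lies highest at -2.89 and control 3 lowest at -3.92.

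Wasf3, the gene of WAVE3, had no probe under its symbol. Probe A_44_P1152029, which the design describes as Wasf3 but names only by a transcript, and A_44_P412729, described as similar to WASP family member 1, were each well above background on 0 of 13 arrays.

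The 10 tested probes did not all move together within the groups. Over the 45 pairs of tested probes, after subtracting group means, Pearson r ranged from -0.76 to 0.85 with a median of 0.04, and 24 pairs lay above 0. The probes of Wasl, LOC103692269, Wipf1, Wasf1, Wasf2 and Wipf3 A_44_P1162055, all highest in control 4, correlated with one another at 0.43 to 0.82. This range was -0.24 to 0.54 without the 2 arrays farthest from the median of 1 probe of each pair, the one listed first. Pairs of other probes on the array were not computed for comparison. Wasl was most like Wasf2 (r 0.82, rho 0.58), LOC103692269 (r 0.81, rho 0.70) and Wipf1 (r 0.80, rho 0.70). Without the 2 arrays farthest from the Wasl median these fell to 0.53, 0.41 and 0.54. Control 4 was the highest array for all 4 probes. All 13 points share the scaling to a percentile, and these values are a description.

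Likeness was looked for among 14566 probes that were well above background on every array and carried a gene symbol rather than a LOC, RGD or transcript name. Those most like the LOC103692269 probe after subtracting group means were of Gnl1 (r 0.99, rho 0.93), Atpif1 (r 0.99, rho 0.98) and Armc5 (r 0.98, rho 0.90). Without the 2 arrays farthest from the median of the member's probe, here and below, r was 0.97, 0.97 and 0.95. For Wasl they were Mitf, Cd302 and Btg2, each with an r of 0.94, and 0.87, 0.83 and 0.86 without the 2 farthest. For the brighter Wipf2 probe they were Mal2 (r 0.92), Ankrd17 (r 0.92) and Prmt1 (r 0.89), with 0.85, 0.89 and 0.91 without the 2 farthest.

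The genes around these regulators were described from a list of 63, of which 61 had a tested probe and Itsn2 and Jmy had none. Each gene was read at its brightest tested probe. With limma, 0 rose and 0 fell at an adjusted p of 0.05, the smallest being 0.353. At an unadjusted p under 0.05, the KI-treated mean was the higher one for 4 of the 61 genes and the lower one for 0. Of all probes tested, 5.71% passed as higher and 7.01% as lower. The 4 genes were 6.6% of those tested, near the share of higher probes, and nothing is read from their count. The median difference of the list was -0.05, and 37 of 61 genes lay below 0, against 60.7% of all probes tested. Over all 86 tested probes of these genes the median was 0.02, and 7 had an unadjusted p under 0.05 with limma. The 4 genes with the higher mean have different roles. Actr2, the Arp2 subunit, differed by 0.64 (SE 0.25, limma adjusted p = 0.369). Capza1, a subunit of the protein that caps filament ends, differed by 0.56 (SE 0.19, limma adjusted p = 0.353). Rac1, the GTPase upstream of the WAVE complex, differed by 0.45 (SE 0.16, limma adjusted p = 0.356). The fourth was Cyfip1, the WAVE complex subunit that binds Rac, at 0.38 (SE 0.16, limma adjusted p = 0.379).

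The most negative differences of the list were smaller than these 4. Pacsin2, an F-BAR protein that binds N-WASP, differed by -0.28 (SE 0.15, limma adjusted p = 0.425). Hcls1, a cortactin relative of blood cells, differed by -0.27 (SE 0.39, limma adjusted p = 0.717). Abl1, a kinase that acts on WAVE, differed by -0.25 (SE 0.18, limma adjusted p = 0.501). For the roles shown in the plot of pathway genes, the median was 0.02 over 9 Arp2/3 subunits, -0.06 over 8 WAVE complex partners, -0.07 over 5 adaptors with SH2 or SH3 domains, and -0.15 over 11 BAR and F-BAR partners. It was -0.12 over 6 kinases, -0.13 over 4 other activators of Arp2/3 and 0.12 over 13 genes of branch inhibition and filament turnover.

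**Figure D4:**
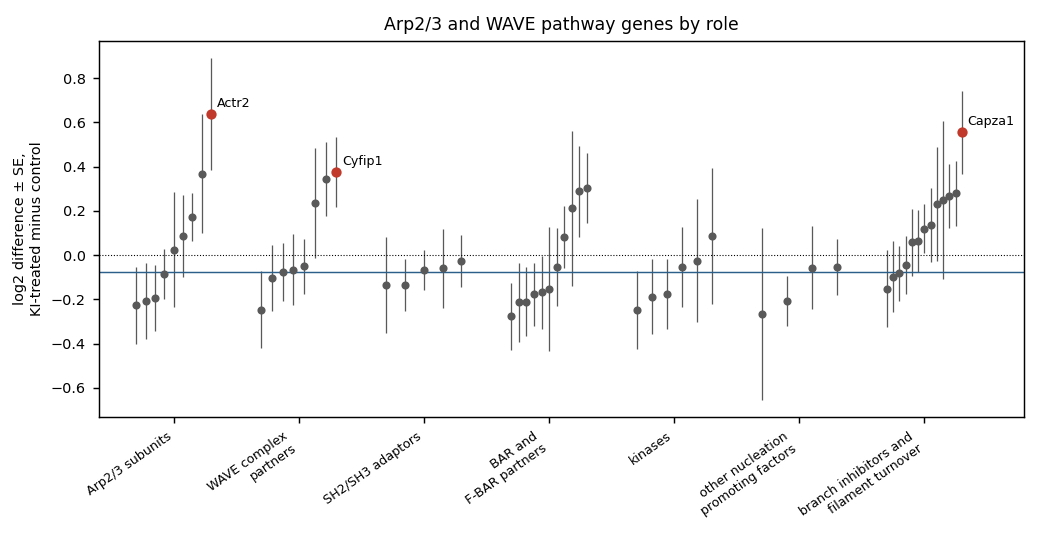
Difference of 56 of the pathway genes at the brightest tested probe of each (log2, KI-treated minus control, bars: SE), grouped by role; red points and names mark the 3 of them at an unadjusted p under 0.05. The blue line is the median of all tested probes, -0.08, and the genes range from -0.28 to 0.64.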

How the data were processed

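The authors deposited a scanner file per array, in which Feature Extraction (version 10.7.3.1) gives each spot's fluorescence intensity after background subtraction, without normalisation between arrays. Also deposited was 1 table with log2 values for these arrays, whose normalisation is not given in the sources used here. It served as an alternative only, and 0 columns belonged to other samples. Cortex arrays were not analysed.

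Control spots and spots flagged as outliers were left out, spots of a probe were averaged as log2 values, and the 75th percentile over the probes was subtracted. A probe was tested if well above background on at least 6 of 13 arrays. limma (version 3.58.1, R 4.3.3; lmFit and eBayes) was fitted over all tested probes, adjusting p by Benjamini-Hochberg with 0.05 as the threshold. The fit was also run on simulated data with independent noise for each probe. Such data hold no shifts shared across an array, and nothing is read from that run here. Correlations were computed in Python 3.11.15 with scipy 1.17.1. Groups and replicate numbers came from the sample labels. Slides and scan sessions came from the file headers. The number of arrays limits the precision.

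The members and the gene lists were chosen with earlier results of these data known. Named are every member and probe, the 3 largest positive and 3 largest negative differences of the pathway list (brightest tested probe), and the 3 genes most like Wipf2, Wasl and LOC103692269. Cyfip1 was named outside this rule, after its value was seen. A few items of the lists are not reported here. Gene names are those of the array design, and 8 of the 9 member symbols matched the RefSeq table.

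The alternatives were quantile normalisation, normexp (offset 50), the deposited log2 values, other filters on dim probes, outlier spots kept, slide, scan session or replicate number as a block, array weights, the t-test named in the study's results, and leaving out each array. The percentile over spots and the omission of controls 4 and 6 were added after seeing the data.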

Additional observations from a re-analysis of the deposited data

How the results depend on the processing

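The count of probes past an adjusted p of 0.05 stayed at 0 except with array weights, where it was 55 (the KI-treated mean was higher at 3 and lower at 52; Wipf2 A_64_P082843, chosen on this comparison, was among the latter), and when 1 array was left out, where it ranged from 0 to 1. The single probe was one of Spag6 without control 1 and one of LOC103690985 without control 2, both named after their values were seen. The t-test named in the study's results gave 0 after adjustment and 3142 at an unadjusted p under 0.05, against 3271 with limma. No pathway probe passed under any alternative. For Wipf2 A_64_P082843 the difference moved from -0.69 to -0.40 (normexp and 75th percentile), -0.21 (normexp and quantile) and -0.21 (deposited log2 values). Wipf3 A_44_P1160179 changed sign from -0.10 to 0.0083 with array weights and ranged from -0.216 to 0.0522 with 1 array left out. Wipf2 A_44_P1110199, which was compared without a test, was -0.08 with normexp and the 75th percentile against 0.15. LOC103692269 ranged from -0.78 to -0.56 with 1 array left out and from -0.71 to -0.43 under the other alternatives. The filter on all 13 arrays left no value for the Wipf2 probes and Wipf3 A_44_P278387. The labels do not say that the replicate numbers pair the animals. Deviations of same-numbered arrays correlated at -0.11 to 0.07, which cannot exclude a pairing. With the replicate block, on 12 arrays, 0 probes passed, 2356 had an unadjusted p under 0.05, and the differences were -0.71 for LOC103692269, -0.17 for Wasl, and -0.68 and 0.19 for the Wipf2 probes. The slide block also dropped control 7, the only array of its slide. The cause of these changes was not tested. Signals close to background limit Was, Wasf1, Wipf2 and the untested probes.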
